A study of Mus musculus with 55 samples.

Results

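A set of 9 genes of the neuromuscular junction and of the denervated muscle fibre was followed through 55 RNA-seq libraries of mouse hindlimb muscle. They were chosen by gene symbol, namely the acetylcholine receptor subunit genes Chrna1, Chrnb1, Chrnd, Chrne and Chrng, the receptor tyrosine kinase gene Musk, the acetylcholinesterase gene Ache, the transcription factor gene Runx1 and the neural cell adhesion molecule gene Ncam1. All 9 were among the 24453 genes of the expression table, and all 9 were among the 12541 genes tested, those whose average over the 55 libraries reached 0.5 RPKM (reads divided by transcript length in kilobases and by the number of mapped reads of the library). Chrng passed that filter through its level in mdx muscle, since all but 1 of the wt libraries were below 0.5 RPKM. The study set mdx mice, which carry a mutation of the dystrophin gene Dmd, against wild-type (wt) mice at 2 and 5 months of age in 3 whole muscles, the flexor digitorum brevis (FDB) of the foot, the extensor digitorum longus (EDL) and the soleus (SOL). At 2 months there were 3 mdx and 4 wt FDB libraries, 4 mdx and 4 wt EDL libraries, and 4 mdx and 4 wt SOL libraries. At 5 months there were 7 mdx and 4 wt FDB libraries, 6 mdx and 4 wt EDL libraries, and 7 mdx and 4 wt SOL libraries. No transgene, drug or surgery is named for any group, and no source used here gives the strain or sex of the mice. Nothing states whether each library came from a separate animal, so the p-values measure the spread between libraries.

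The muscle acetylcholine receptor is a pentamer at the endplate that opens when the motor nerve releases acetylcholine. In foetal muscle it holds the gamma subunit, and after birth the epsilon subunit takes its place at the synapse. Nerve-derived agrin acts through LRP4 and the kinase MuSK to gather receptors under the nerve terminal, and acetylcholinesterase clears the transmitter. When a fibre loses its nerve, or when a new fibre forms after injury and is not yet innervated, receptor genes are transcribed along its whole length, and Runx1 and Ncam1 are known to be switched on with them.

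The promoters of 3 receptor genes are shown because the foetal and adult subunit genes are set against each other throughout, and Chrna1 is a subunit of both receptors. Each window holds the 250 bases before the RefSeq start of the gene on mouse build GRCm38.p6, written from 5′ to 3′ on the strand of the gene. Capitals mark matches to the E-box CANNTG, the site that myogenic factors such as myogenin bind, or to CCGGAA, the core of the N-box described in synaptic genes.
Chrng, chr1:87205561-87205810, plus strand: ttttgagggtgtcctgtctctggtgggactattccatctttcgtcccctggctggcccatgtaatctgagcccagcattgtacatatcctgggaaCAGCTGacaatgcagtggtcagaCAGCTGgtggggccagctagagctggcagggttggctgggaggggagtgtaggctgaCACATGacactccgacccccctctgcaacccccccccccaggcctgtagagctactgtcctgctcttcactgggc
Chrna1, chr2:73580339-73580588, minus strand: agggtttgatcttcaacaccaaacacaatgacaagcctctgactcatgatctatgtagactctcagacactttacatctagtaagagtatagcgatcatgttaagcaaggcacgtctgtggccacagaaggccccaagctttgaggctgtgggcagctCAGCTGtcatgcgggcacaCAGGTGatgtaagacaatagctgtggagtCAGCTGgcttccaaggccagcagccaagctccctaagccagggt
Chrne, chr11:70619195-70619444, minus strand: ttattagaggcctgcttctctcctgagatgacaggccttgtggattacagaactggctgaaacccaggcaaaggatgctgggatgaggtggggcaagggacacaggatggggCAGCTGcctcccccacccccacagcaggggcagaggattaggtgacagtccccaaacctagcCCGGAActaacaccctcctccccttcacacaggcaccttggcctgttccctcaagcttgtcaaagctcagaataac
Both strands were searched. The Chrng and Chrna1 windows each held 3 E-box matches, 2 of them CAGCTG, and no N-box match. The Chrne window held 1 E-box match, also CAGCTG, and 1 N-box match that began 76 bases before the start. Of 32851 such windows of mouse genes, 66.2% held an E-box match, 13.0% held CAGCTG and 12.03% held CCGGAA. RefSeq windows matched 7 of the 9 genes.

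Dmd, the gene mutated in mdx mice, averaged between 1.89 and 3.71 RPKM in the mdx groups and between 6.94 and 11.7 RPKM in the wt groups, and every mdx library lay below every wt library of its muscle and age. Depth, read from the size of 1 read in each library, was 20.3 to 66.8 M reads around a median of 50.4 M. The share of low values that came out whole to within 0.1 read was 85.0% to 93.5%. The 4 mdx EDL libraries of 2 months had 20.3 to 39.0 M reads. The libraries carry running numbers in 3 blocks, and all wt and all 2-month libraries are in the first. Of the mdx libraries of 5 months, 3 FDB and 2 EDL are in the first block, 4 SOL are in the second, and 4 FDB, 4 EDL and 3 SOL are in the third. For mdx SOL of 5 months, block thus cannot be told apart from genotype or from age. The blocks are known only from the numbers, and no source used here says what they stand for. In whole muscle, more fibres or cells that use a gene and more RNA per cell cannot be told apart.

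Chrng, Runx1 and Ncam1 were higher in mdx than in wt muscle in all 6 comparisons, while Chrne, Musk and Ache were higher in some muscles and lower or not past the threshold in others. Differences are on the log2(RPKM + 1) scale, which understates the change of genes near 0, and were tested with limma at a Benjamini-Hochberg adjusted p under 0.05 over all 12541 genes. In the EDL of 2 months all 9 genes were higher in mdx, where 41.6% of all tested genes were called higher and 8.69% lower. In the EDL of 5 months 8 were higher and Musk was not called, beside 60.2% of all genes higher and 8.52% lower. In the SOL of 2 months 6 were higher and none lower, beside 32.3% higher and 7.68% lower of all genes. In the SOL of 5 months 7 were higher and Musk was lower, beside 52.9% higher and 11.3% lower. In the FDB of 2 months 3 were higher and Chrne was lower, beside 30% higher and 4.6% lower. In the FDB of 5 months 5 were higher and Musk was lower, beside 53.1% higher and 9.46% lower.

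The median difference of the 9 genes was 0.19 in the FDB of 2 months, 0.27 in the FDB of 5 months, 1.26 in the EDL of 2 months, 0.94 in the EDL of 5 months, 0.79 in the SOL of 2 months and 0.57 in the SOL of 5 months. Over all tested genes it was 0.13, 0.18, 0.14, 0.23, 0.10 and 0.18 in the same order. In FDB the median of the 9 thus lay close to that of all genes, and in EDL it lay furthest above. Single genes in FDB lay apart from that median in both directions, with Chrng above it at both ages and Chrne below it at 2 months. The direction of the calls over all genes depended on the scaling: 80.8% to 87.6% of the called genes were higher in mdx on the deposited scale, against 42.4% to 48.5% after scaling by median ratios and 39.2% to 43.2% after quantile normalization.

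**Figure D1:**
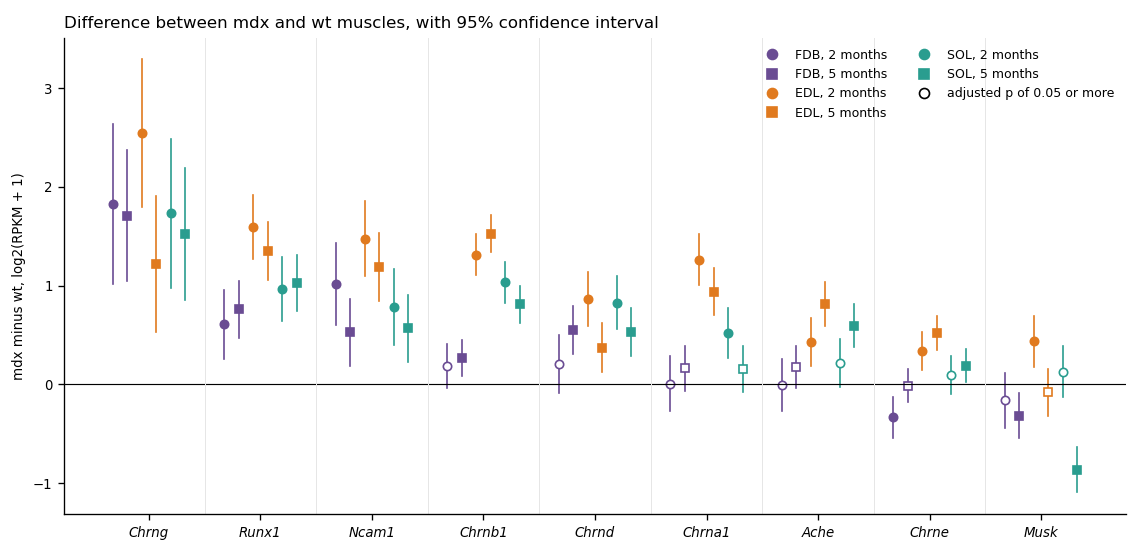
Difference between mdx and wt muscle for each of the 9 genes (y axis, log2(RPKM + 1)), with 95% confidence intervals from limma; colours give the muscle, circles 2 months and squares 5 months, and open symbols an adjusted p of 0.05 or more. Chrng, Runx1 and Ncam1 lie above 0 in all 6 comparisons, and Musk of the 5-month SOL is the lowest value at -0.86.

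Chrng encodes the gamma subunit of the foetal receptor. In the EDL of 2 months it had 1.22, 2.99, 10.5 and 13.3 RPKM in the mdx libraries, against 0.0304, 0.0474, 0.0805 and 0.0868 RPKM in the wt libraries. The groups did not overlap, and the mdx libraries spread widely, a pair of them far above the other pair. The difference was 2.54 ± 0.37 (SE), with an adjusted p of 2.67e-07. In the FDB of 2 months the mdx libraries had 2.04, 3.79 and 5.11 RPKM, against 0.221, 0.246, 0.263 and 0.290 RPKM in wt, a difference of 1.83 ± 0.40 (adjusted p = 7.46e-04). In the SOL of 2 months Chrng had 1.59, 2.44, 3.78 and 6.03 RPKM in mdx, against 0.0762, 0.200, 0.242 and 0.539 RPKM in wt, a difference of 1.73 ± 0.37 (adjusted p = 2.17e-04). Every mdx library of 2 months was above every wt library of its muscle.

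At 5 months Chrng was again higher in mdx in the 3 muscles, and no mdx library overlapped the wt range of its muscle. The 7 mdx FDB libraries had 1.60 RPKM at the lowest, 2.14 at the median and 5.31 at the highest, against 0.131, 0.132, 0.149 and 0.164 RPKM in wt FDB (difference 1.71 ± 0.33, adjusted p = 1.82e-05). The 6 mdx EDL libraries had 0.640, 1.14 and 4.35 RPKM at the lowest, median and highest, against 0.0274, 0.0757, 0.107 and 0.134 RPKM in wt EDL (difference 1.22 ± 0.34, adjusted p = 1.62e-03). In mdx SOL the lowest, median and highest of 7 were 0.946, 2.49 and 4.28 RPKM, against 0.0961, 0.182, 0.202 and 0.266 RPKM in wt SOL (difference 1.52 ± 0.33, adjusted p = 9.68e-05). With the first block alone, which leaves 2 mdx EDL libraries, the EDL difference was 0.61 with an adjusted p of 0.206, and with the third block alone it was 1.52.

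The wt levels of Chrng rest on few reads. With the recovered depth and the length of the longest annotated transcript, the mdx libraries held about 63.7 to 1440 Chrng reads and the wt libraries about 2.89 to 76.6. The ratio of the group means was 114 in the EDL of 2 months, and from 13.1 in the SOL of 2 months to 21.4 in the EDL of 5 months in the other comparisons. With a pseudocount of 0.1 in place of 1 the difference in the EDL of 2 months was 4.94. The authors' deposited table gives ratios of mdx to wt between 6.90 in the EDL of 5 months and 30.8 in the EDL of 2 months for Chrng. For the same comparisons the ratios of group means were 21.4 and 114, so the deposited ratios are a different measure.

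**Figure D2:**
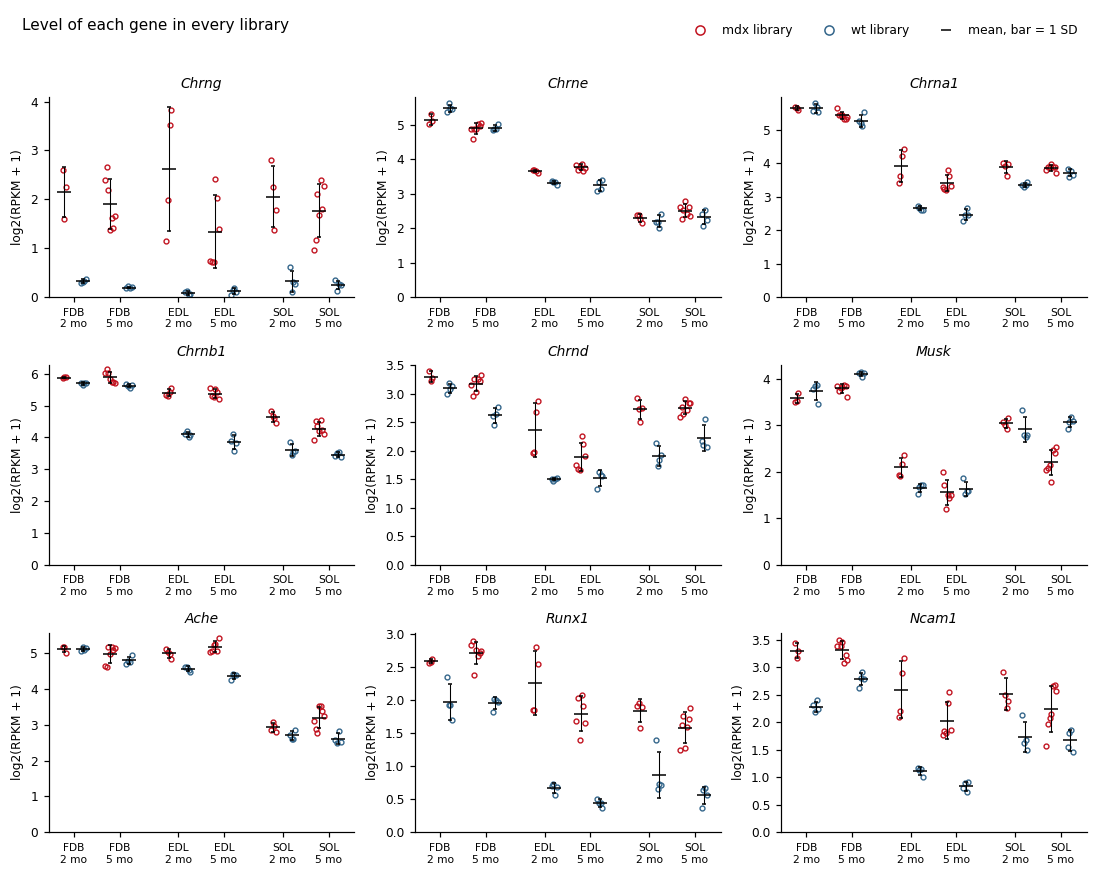
Level of each gene in log2(RPKM + 1) (y axis) by muscle and age (x axis), with mdx in red and wt in blue; each circle is 1 library, and black marks give the mean and 1 SD. Chrng is near 0 in wt muscle and higher in every mdx group, and Musk of the 5-month SOL is lower in mdx than in wt.

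Chrne encodes the epsilon subunit of the adult receptor, and it did not follow Chrng. In the FDB of 2 months it was lower in mdx, at 31.7, 33.8 and 39.1 RPKM, against 40.8, 43.3, 43.8 and 48.4 RPKM in wt. The ranges came close without overlapping, and the difference was -0.33 ± 0.10 (adjusted p = 0.0106). Without the mdx library of 31.7 RPKM the call was lost (difference -0.27, adjusted p = 0.0876). In the EDL of 2 months Chrne was higher in mdx, at 11.2, 11.8, 11.9 and 11.9 RPKM, against 8.51, 9.17, 9.21 and 9.27 RPKM in wt (difference 0.34 ± 0.10, adjusted p = 2.72e-03). That rise was lost after scaling by median ratios (0.14) and after quantile normalization (0.17). In the EDL of 5 months the 6 mdx libraries ran from 11.6 over a median of 12.7 to 13.6 RPKM, against 7.53, 7.84, 9.12 and 9.53 RPKM in wt (difference 0.52 ± 0.09, adjusted p = 1.18e-06).

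For Chrne in SOL the groups overlapped at both ages. At 5 months the difference was 0.19 ± 0.08 with an adjusted p of 0.0454, and it was lost when 1 of several libraries was left out and turned to -0.02 after scaling by median ratios and to -0.05 after quantile normalization. At 2 months it was 0.09 (adjusted p = 0.459) and in the FDB of 5 months -0.01 (adjusted p = 0.917), where scaling by median ratios gave -0.28, past the threshold.

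As a share of the summed RPKM of Chrng and Chrne, the foetal subunit made up 44.3% ± 12.3 (SD, n = 4) in mdx SOL of 2 months and 6.77% ± 4.78 (n = 4) in wt SOL. At 5 months the share was 34.2% ± 12.8 (n = 7) in mdx SOL and 4.34% ± 1.19 (n = 4) in wt SOL. In EDL it was 32.7% ± 21.4 (n = 4) in mdx and 0.670% ± 0.280 (n = 4) in wt at 2 months, and 11.9% ± 8.75 (n = 6) in mdx and 0.997% ± 0.558 (n = 4) in wt at 5 months. In FDB it was 9.64% ± 4.47 (n = 3) in mdx and 0.577% ± 0.0704 (n = 4) in wt at 2 months, and 9.39% ± 5.13 (n = 7) in mdx and 0.492% ± 0.0513 (n = 4) in wt at 5 months. SOL had the highest shares in both genotypes, and SOL is also the muscle in which Chrne was lowest. Single libraries went up to 59.1% in mdx SOL and 54.2% in mdx EDL of 2 months, so that in these the foetal subunit's RPKM exceeded that of the adult one.

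**Figure D3:**
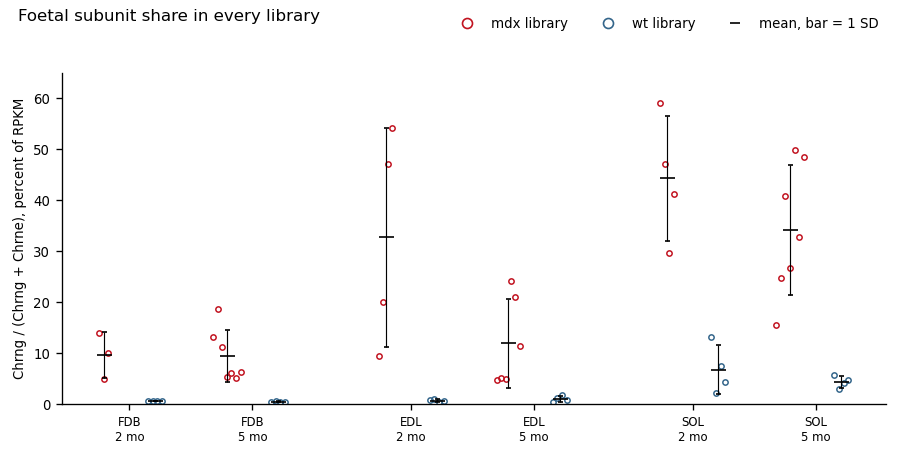
Share of Chrng in the summed RPKM of Chrng and Chrne (y axis, percent) by muscle and age, with mdx in red and wt in blue; each circle is 1 library, and black marks give the mean and 1 SD. No mdx library lies within the wt range of its muscle and age, and mdx SOL reaches 59.1%.

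Chrna1, Chrnb1 and Chrnd encode the alpha, beta and delta subunits that both receptors share. Chrnb1 was higher in mdx EDL of 2 months at 38.7, 39.2, 42.2 and 46.0 RPKM, against 15.0, 16.0, 16.2 and 17.2 RPKM in wt (difference 1.31 ± 0.10, adjusted p = 6.34e-14). At 5 months the 6 mdx EDL libraries had 36.3, 39.9 and 45.8 RPKM at the lowest, median and highest, against 11.0, 13.2, 13.8 and 16.1 RPKM in wt (difference 1.52 ± 0.09, adjusted p = 6.37e-18). The replicates lay close together and the ranges far apart. SOL followed with 1.03 ± 0.10 at 2 months (adjusted p = 1.73e-10) and 0.81 ± 0.09 at 5 months (adjusted p = 3.11e-10), again without overlap. In FDB the Chrnb1 difference was 0.19 (adjusted p = 0.190) at 2 months and 0.27 (adjusted p = 9.88e-03) at 5 months. At 2 months the groups did not overlap, and a fit of the compared groups alone called the gene higher (adjusted p = 4.89e-03). The difference at 5 months turned to -0.01 after scaling by median ratios and was lost after quantile normalization (0.12) and in the third block alone (0.13).

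Chrna1, the subunit that carries the acetylcholine binding site, had 9.64, 11.2, 17.4 and 20.5 RPKM in mdx EDL of 2 months, against 5.08, 5.10, 5.35 and 5.60 RPKM in wt EDL. The mdx libraries were again split into a higher and a lower pair, both above wt, and the difference was 1.26 ± 0.13 (adjusted p = 8.99e-11). At 5 months mdx EDL had 8.24, 8.81 and 12.9 RPKM at the lowest, median and highest, against 3.82, 4.49, 4.50 and 5.33 RPKM in wt (difference 0.94 ± 0.12, adjusted p = 2.72e-09). In SOL it was higher at 2 months (0.52 ± 0.13, adjusted p = 1.01e-03). In the SOL of 5 months it was 0.16 (adjusted p = 0.227), and in FDB it was 0.01 at 2 months and 0.16 at 5 months (adjusted p = 0.971 and 0.212), with overlapping ranges.

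Chrnd passed the threshold in 5 of 6 comparisons. In SOL of 2 months it had 4.71, 5.65, 5.71 and 6.58 RPKM in mdx, against 2.31, 2.56, 2.79 and 3.39 RPKM in wt (difference 0.83 ± 0.13, adjusted p = 3.58e-06). In EDL of 2 months it had 2.89, 2.92, 5.39 and 6.30 RPKM in mdx, against 1.77, 1.84, 1.85 and 1.86 RPKM in wt (difference 0.87 ± 0.13, adjusted p = 7.43e-07). The groups did not overlap in either muscle. At 5 months the difference was 0.55 in FDB (adjusted p = 9.14e-05), 0.53 in SOL (adjusted p = 1.45e-04) and 0.37 in EDL (adjusted p = 6.67e-03), and the EDL rise was lost after scaling by median ratios (0.14), after quantile normalization (0.03) and in the first block alone (0.19). In FDB of 2 months it was 0.20 (adjusted p = 0.275), without overlap, and a fit of the compared groups alone called it higher (adjusted p = 0.0280).

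Musk encodes the kinase that organises the postsynaptic membrane, and it had the lowest difference of the 9 genes. In SOL of 5 months the 7 mdx libraries had 2.42, 3.42 and 4.75 RPKM at the lowest, median and highest, against 6.61, 7.33, 7.53 and 8.08 RPKM in wt. All 7 mdx libraries were below all 4 wt libraries, and the difference was -0.86 ± 0.11 (adjusted p = 1.25e-08). With the second block alone it was -1.06 and with the third alone -0.60, both past the threshold. The 4 libraries of the second block had 2.42 to 3.42 RPKM, and the 3 of the third had 4.25 to 4.75. The second block also had lower depth, 21.2 to 25.7 M reads, and a higher sum of erythroid and platelet markers, 1288 to 1733 RPKM, against 418 to 459 RPKM in the third. The part of these in the Musk level was not tested.

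At 2 months Musk in SOL was not lower: mdx SOL had 6.58, 7.01, 7.42 and 7.94 RPKM, against 5.71, 5.93, 5.94 and 8.96 RPKM in wt (difference 0.13, adjusted p = 0.456). The test of the difference between ages, 5 months minus 2 months, gave -0.99 ± 0.17 (adjusted p = 2.55e-04), beside 2.99% of all genes called lower in that contrast. It was -1.12 without the wt library of 8.96 RPKM, -1.18 with the second block alone and -0.73 with the third alone. In FDB of 5 months Musk was also lower in mdx, at 11.2, 13.1 and 13.7 RPKM for the lowest, median and highest of 7, against 15.5, 16.3, 16.4 and 16.7 RPKM in wt (difference -0.32 ± 0.11, adjusted p = 0.0143), a call lost with the first block alone (-0.31). In EDL of 2 months it was higher, at 2.77, 2.82, 3.47 and 4.13 RPKM in mdx, against 1.89, 2.17, 2.26 and 2.28 RPKM in wt (difference 0.44 ± 0.13, adjusted p = 3.88e-03), and this was lost after scaling by median ratios (0.29) and after quantile normalization (0.20). In EDL of 5 months it was -0.08 (adjusted p = 0.557) on the deposited scale, while scaling by median ratios gave -0.32 and quantile normalization -0.43, both past the threshold.

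Ache encodes the enzyme that breaks down acetylcholine at the synapse. In EDL of 5 months it had 31.8, 34.6 and 42.0 RPKM at the lowest, median and highest of 6 mdx libraries, against 18.0, 20.0, 20.1 and 20.3 RPKM in wt (difference 0.81 ± 0.11, adjusted p = 1.88e-08). In SOL of 5 months the 7 mdx libraries had 5.80, 8.44 and 10.6 RPKM, against 4.59, 4.76, 5.01 and 6.12 RPKM in wt, with 1 mdx library inside the wt range (difference 0.59 ± 0.11, adjusted p = 5.75e-06). In EDL of 2 months it was higher by 0.43 (adjusted p = 2.81e-03), a call lost after scaling by median ratios (0.22). It did not pass in FDB of 2 months (-0.01, adjusted p = 0.980), FDB of 5 months (0.18, adjusted p = 0.151, but 0.30 and past the threshold with the third block alone) or SOL of 2 months (0.22, adjusted p = 0.143). A fit of the compared groups alone did call Ache higher in SOL of 2 months (adjusted p = 0.0384).

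Runx1 encodes a transcription factor that is induced by denervation in muscle and is also used by blood cells. In EDL of 2 months it had 2.59, 2.61, 4.81 and 5.99 RPKM in mdx, against 0.483, 0.6004, 0.624 and 0.667 RPKM in wt (difference 1.59 ± 0.16, adjusted p = 8.60e-11). At 5 months the 6 mdx EDL libraries had 1.63, 2.48 and 3.23 RPKM at the lowest, median and highest, against 0.289, 0.363, 0.365 and 0.424 RPKM in wt (difference 1.35 ± 0.15, adjusted p = 1.09e-10). In SOL the difference was 0.96 ± 0.16 at 2 months (adjusted p = 5.62e-06) and 1.03 ± 0.14 at 5 months (adjusted p = 3.97e-08). In FDB, where wt levels were highest, it was 0.61 ± 0.17 at 2 months (adjusted p = 6.17e-03) and 0.76 ± 0.14 at 5 months (adjusted p = 1.08e-05). No mdx library overlapped wt in any of the 6 comparisons, and each call held under both other scalings, with each block alone and without any 1 library.

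Ncam1 encodes a cell adhesion molecule found along denervated and regenerating fibres, on satellite cells and on non-myelinating Schwann cells. In FDB of 2 months it had 8.03, 8.79 and 9.85 RPKM in mdx, against 3.57, 3.72, 3.98 and 4.27 RPKM in wt (difference 1.02 ± 0.20, adjusted p = 3.22e-04). In EDL of 2 months it had 3.29, 3.61, 6.47 and 8.002 RPKM in mdx, against 1.02, 1.20, 1.23 and 1.26 RPKM in wt (difference 1.47 ± 0.19, adjusted p = 2.04e-08). The groups were apart in both muscles. At 5 months the difference was 1.19 in EDL (adjusted p = 9.01e-08), 0.57 in SOL (adjusted p = 3.06e-03) and 0.53 in FDB (adjusted p = 6.05e-03), and in SOL of 2 months it was 0.79 (adjusted p = 8.42e-04). The FDB call of 5 months was lost after scaling by median ratios (0.28) and after quantile normalization (0.28), and the SOL call of 5 months after quantile normalization (0.31) and in the second block alone (0.27).

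Markers of other cells also differed between the mdx and wt groups. Of 11 tested markers of regenerating fibres and myoblasts, 9 to 11 rose in mdx in each comparison, beside 30% to 60.2% of all genes. Their summed level was 787 to 1219 RPKM in mdx EDL of 2 months, against 182 to 347 RPKM in wt EDL. Most of that sum was Actc1, which averaged 776 RPKM in this mdx group and 209 RPKM in wt. Of 10 tested macrophage markers, 9 or 10 rose, beside the same shares of all genes. Their sum was 303 to 618 RPKM in mdx EDL of 2 months, against 67.6 to 117 RPKM in wt EDL. In SOL of 2 months 1 wt library had a macrophage sum of 99.3 RPKM, the other wt libraries had 38.3 to 44.2 RPKM, and the same library had the highest wt Chrng, Runx1, Ncam1 and Musk of that group. Its regenerating-fibre sum was also the highest of that group, at 89.1 RPKM against 45.9 to 48.2 RPKM. Of 9 tested Schwann cell markers, 8 rose in mdx FDB of 5 months, beside 53.1% of all genes. The sum of all 11 listed Schwann cell markers there was 120 to 139 RPKM in the first mdx block, within the 94.7 to 156 RPKM of wt, which is all first block. In the third mdx block it was 309 to 421 RPKM, so only that block lay above wt. In mdx EDL of 2 months 3 of the 9 tested fell, beside 8.69% of all genes (sum of the 11 listed 49.9 to 55.1 RPKM in mdx, 66.0 to 102 RPKM in wt). No marker in these 3 lists was at 0 in all libraries of a group. The part of these cells in the levels of the 9 genes was not tested.

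Chrng and the embryonic myosin gene Myh3, which is used by newly formed fibres, ranked alike in the mdx EDL libraries of 2 months but not in every group. In mdx EDL of 2 months, the libraries of 1.22, 2.99, 10.5 and 13.3 RPKM of Chrng had 9.92, 20.0, 74.4 and 85.3 RPKM of Myh3. The wt EDL libraries of 2 months averaged 1.72 RPKM of Myh3. In mdx EDL of 5 months the library highest in Chrng, at 4.35 RPKM, had 15.8 RPKM of Myh3, and that of 3.09 RPKM had 34.1 RPKM. In mdx SOL of 5 months a library of 1.25 RPKM of Chrng had 34.4 RPKM of Myh3, and 1 of 3.31 RPKM had 18.7 RPKM. In mdx FDB of 5 months the 3 libraries of the first block had 3.59 to 5.31 RPKM of Chrng with a regenerating-fibre sum of 255 to 342 RPKM. The 4 of the third block had 1.60 to 2.14 RPKM of Chrng with a sum of 141 to 157 RPKM, and their Schwann cell sum was 309 to 421 RPKM, against 120 to 139 RPKM in the first block. Both blocks passed the threshold for Chrng alone, with differences of 2.23 in the first and 1.32 in the third.

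**Figure D4:**
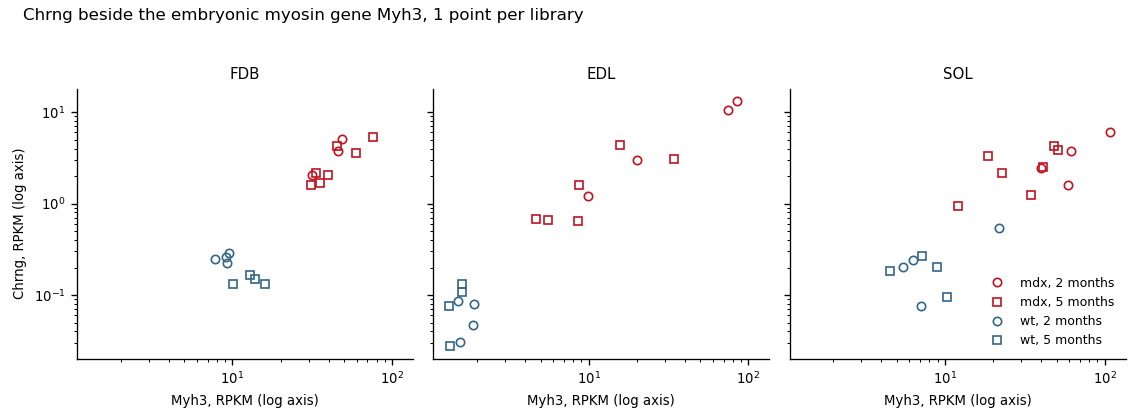
Chrng (y axis) beside Myh3 (x axis), both in RPKM on log axes, in FDB, EDL and SOL; each point is 1 library, red for mdx and blue for wt, circles for 2 and squares for 5 months. The mdx EDL libraries of 2 months range from 1.22 RPKM of Chrng with 9.92 RPKM of Myh3 to 13.3 RPKM with 85.3 RPKM.

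Wider lists set these genes in context. Of 14 tested denervation-response genes other than the 9, 6 rose and none fell in FDB of 2 months, 8 rose and 2 fell in FDB of 5 months, 10 rose and none fell in EDL of 2 months, 11 rose and 1 fell in EDL of 5 months, 9 rose and 1 fell in SOL of 2 months, and 10 rose and 1 fell in SOL of 5 months. In the same order, 30%, 53.1%, 41.6%, 60.2%, 32.3% and 52.9% of all genes were called higher and 4.6%, 9.46%, 8.69%, 8.52%, 7.68% and 11.3% lower. The list's median difference ran from 0.25 in FDB of 5 months, where that of all genes was 0.18, to 0.74 in EDL of 5 months, where that of all genes was 0.23. Myog, the gene of the myogenic factor myogenin, averaged 17.0 ± 6.5 RPKM (SD, n = 4) in mdx EDL of 2 months and 1.45 ± 0.39 RPKM (n = 4) in wt, a difference of 2.81 (adjusted p = 1.9e-08). Ankrd1, a stretch- and denervation-responsive ankyrin repeat gene, rose by 3.06 in EDL of 2 months (adjusted p = 6.8e-09) and by 3.51 in EDL of 5 months (adjusted p = 6.3e-12). Sln, the sarcolipin gene, rose by 2.27 in SOL of 2 months (adjusted p = 5.0e-11) and by 2.12 in SOL of 5 months (adjusted p = 8.8e-13). The atrophy ligase gene Fbxo32 fell in FDB and EDL of 5 months and in SOL at both ages, by 0.49, 0.71, 0.51 and 0.52 (adjusted p = 4.3e-03, 8.5e-05, 0.013 and 2.4e-03), and it rose in EDL of 2 months by 0.49 (adjusted p = 0.013), a value added after it was seen because it runs the other way. Myog and Myod1 are in both the denervation list and the list of regenerating-fibre markers.

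Of 30 tested genes of junction assembly, 8 rose and 1 fell in FDB of 2 months, 20 and 1 in FDB of 5 months, 15 and 1 in EDL of 2 months, 23 and 2 in EDL of 5 months, 12 and 0 in SOL of 2 months, and 15 and 4 in SOL of 5 months. These counts stand beside the same shares of all genes, 30%, 53.1%, 41.6%, 60.2%, 32.3% and 52.9% higher, and in FDB of 2 months and SOL of 5 months the share of the list that rose was below or near that of all genes. The median difference of the list ran from 0.13 in SOL of 2 months to 0.35 in EDL of 5 months, where that of all genes was 0.10 and 0.23. Pak1, a kinase in the agrin signal, rose most in EDL of 5 months (1.42, adjusted p = 3.4e-18). Colq, which anchors acetylcholinesterase in the synaptic basal lamina, averaged 10.05 ± 2.00 RPKM (SD, n = 7) in mdx SOL of 5 months and 5.96 ± 1.0 RPKM (n = 4) in wt, a difference of 0.66 (adjusted p = 9.0e-08). Erbb3, a neuregulin receptor gene, fell there by 0.47 (adjusted p = 1.5e-03). Rapsn, whose product clusters the receptor, differed by -0.01 to 0.13 in the 2-month muscles (adjusted p from 0.16 to 0.95). At 5 months Rapsn rose in mdx by 0.21 in FDB (adjusted p = 6.1e-03), 0.23 in EDL (adjusted p = 3.4e-03) and 0.33 in SOL (adjusted p = 3.4e-05), values given so that both ages are shown. The median difference of all genes was 0.18, 0.23 and 0.18 in the same order, so Rapsn in FDB and EDL lay close to it. Dok7 and Lrp4, the partners of MuSK, did not pass in SOL of 5 months, where Musk was lower, with differences of -0.09 (adjusted p = 0.47) and -0.13 (adjusted p = 0.24).

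Of 10 tested genes of membrane excitability, 1 rose and 2 fell in FDB of 2 months, 1 rose and 4 fell in FDB of 5 months, 1 rose and 4 fell in EDL of 2 months, 3 rose and 1 fell in EDL of 5 months, 1 rose and 5 fell in SOL of 2 months, and 2 rose and 4 fell in SOL of 5 months. Of all genes 30%, 53.1%, 41.6%, 60.2%, 32.3% and 52.9% were higher and 4.6%, 9.46%, 8.69%, 8.52%, 7.68% and 11.3% lower in that order of muscles and ages. Scn4a, the sodium channel of the muscle action potential, fell by 0.44 in EDL of 2 months (adjusted p = 1.9e-03) and by 0.26 in EDL of 5 months (adjusted p = 0.030). Of 11 neuronal nicotinic subunit genes only Chrna10 was abundant enough to be tested. It was higher in EDL of 2 months (0.43, adjusted p = 0.017), lower in EDL of 5 months (-0.32, adjusted p = 0.044) and in SOL of 2 months (-0.38, adjusted p = 0.044), and between 1.10 and 7.45 RPKM over all libraries. In EDL of 2 months it averaged 3.77 ± 2.49 RPKM (SD, n = 4) in mdx and 2.25 ± 0.22 RPKM (n = 4) in wt. The 7.45 RPKM came from 1 of those mdx libraries, so the rise there leans on that library.

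The mdx response differed between muscles, and most often FDB differed from EDL. At 2 months the FDB minus EDL contrast of the mdx minus wt differences was called lower for 6 of the 9 genes, beside 3.19% of all genes. It was -1.25 for Chrna1 (adjusted p = 1.09e-05), -1.13 for Chrnb1 (adjusted p = 1.18e-06), -0.98 for Runx1 (adjusted p = 7.16e-03), -0.67 for Chrne (adjusted p = 1.58e-03), -0.66 for Chrnd (adjusted p = 0.0360) and -0.60 for Musk (adjusted p = 0.0497). The Musk call was lost after quantile normalization (-0.52) and without a filter (adjusted p = 0.0661), and it held in 3 of 15 fits that left out 1 library. The Chrnd call was lost in the compared groups alone (adjusted p = 0.0817) and held in 4 of 15. At 5 months it was again called lower for 6, beside 11.3% of all genes, with -1.26 for Chrnb1 (adjusted p = 5.06e-10) and -0.78 for Chrna1 (adjusted p = 4.72e-04) as the lowest and Ache, Ncam1, Runx1 and Chrne between -0.66 and -0.53. With the first block alone the calls on Chrna1 (-0.54), Ncam1 (-0.32) and Runx1 (-0.67) were lost, and quantile normalization ended that on Ncam1 (-0.58). Without a filter those on Ncam1 and Runx1 were also lost (adjusted p = 0.0703 and 0.0553). With 1 library left out in turn, the call held in 9 of 21 fits for Ncam1 and in 11 of 21 for Runx1. Chrng passed in none of the 6 contrasts between muscles, so its rise was not shown to differ between them. These contrasts share libraries with each other and with the mdx minus wt differences.

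SOL also differed from EDL. At 5 months SOL minus EDL was lower for Chrna1 and Musk (both -0.78, adjusted p = 5.68e-04 and 5.82e-04), Chrnb1 (-0.71, adjusted p = 1.01e-04) and Chrne (-0.33, adjusted p = 0.0457), beside 12.7% of all genes. The Chrne call was lost after scaling by median ratios (-0.23, adjusted p = 0.177), after quantile normalization (adjusted p = 0.0530), with a pseudocount of 0.1, without a filter and in the compared groups alone, and it held in 9 of 21 fits that left out 1 library. With the third block alone the Musk value was -0.37 and not past the threshold. At 2 months it was lower for Chrna1 alone (-0.74, adjusted p = 0.0137), beside 1.7% of all genes. That call was lost in the compared groups alone (adjusted p = 0.0808) and held in 13 of 16 fits that left out 1 library. FDB minus SOL was lower for Chrnb1 at 2 months (-0.85, adjusted p = 7.51e-04), beside 0.63% of all genes. At 5 months it was lower for Chrnb1 (-0.54, adjusted p = 1.78e-03) and Ache (-0.42, adjusted p = 0.0357), beside 12% of all genes, and higher for Musk (0.55, adjusted p = 0.0102), beside 13.7% of all genes. The Ache call was lost after quantile normalization (-0.32, adjusted p = 0.106), without a filter and in the compared groups alone, and held in 13 of 22 fits that left out 1 library. With the third block alone the Musk value was 0.28 and not past the threshold.

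With age, 6 of the 9 genes were lower at 5 than at 2 months in mdx EDL, beside 11.6% of all genes, but the ranges overlapped for each of them. Chrng changed by -1.29 ± 0.34 (adjusted p = 6.80e-03), Ncam1 by -0.57 (adjusted p = 0.0193), Musk by -0.54 (adjusted p = 1.25e-03), Chrna1 by -0.51 (adjusted p = 1.96e-03), and Chrnd and Runx1 both by -0.47 (adjusted p = 5.76e-03 and 0.0222). Without either of the 2-month mdx EDL libraries of 10.5 or 13.3 RPKM of Chrng, the calls on Chrng, Chrnd, Ncam1 and Runx1 were lost, with Chrng at -0.99 and -0.89. In a fit of the compared groups alone 1 of the 9 was called, namely Musk. With the first block alone, which holds all the 2-month libraries, Musk was at -0.24 (adjusted p = 0.395) and Runx1 at -0.40 (adjusted p = 0.264). The difference between mdx and wt did not change with age past the threshold for any of the 9 in EDL or FDB, beside 5.92% and 1.34% of all genes called in either direction, and in SOL it did so for Musk alone. In EDL Chrng was at -1.32 with an adjusted p of 0.106, and scaling by median ratios brought Chrnd (-0.58) and Musk (-0.61) past the threshold.

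In mdx SOL, Musk was lower at 5 than at 2 months, with a difference of -0.84 (adjusted p = 3.07e-07), as was Chrnb1 with -0.37 (adjusted p = 1.20e-03), beside 20.2% of all genes lower, and Ache and Chrne were higher by 0.28 and 0.22 (adjusted p = 0.0354 and 0.0372), beside 20.6% of all genes higher. With 1 of the 11 libraries left out in turn, the call held in 5 of 11 fits for Ache and in 6 of 11 for Chrne. With the second block alone Ache was at 0.15, and with the third alone Chrne was at 0.16, neither past the threshold. Neither block holds a 2-month library, so block and age cannot be told apart in mdx SOL. In wt FDB, Chrne was lower at 5 months, with 27.9, 28.5, 28.6 and 31.6 RPKM, against 40.8, 43.3, 43.8 and 48.4 RPKM at 2 months (difference -0.58 ± 0.10, adjusted p = 9.91e-06). Chrnd, Chrna1 and Ache were lower there by -0.47, -0.37 and -0.32 (adjusted p = 5.37e-03, 0.0221 and 0.0352), beside 27.3% of all genes lower, and Ncam1 and Musk were higher by 0.50 and 0.37 (adjusted p = 0.0373 and 0.0223), beside 6.33% higher. Scaling by median ratios ended the calls on Chrna1 (-0.23) and Ache (-0.18), and quantile normalization that on Ache (-0.28). With 1 of the 8 libraries left out in turn, the call held in 5 of 8 fits for Chrna1, in 2 of 8 for Ache, in 2 of 8 for Ncam1 and in 6 of 8 for Musk. In wt SOL Chrna1 alone was higher (0.35, adjusted p = 0.0492), beside 3.58% of all genes, and this was lost without any 1 of the 8 libraries. In wt EDL and mdx FDB none of the 9 was called, beside 23.8% and 5.88% of all genes in either direction.

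In wt muscle 8 of the 9 genes were highest in FDB. At both ages 8 of the 9 were higher in FDB than in EDL, beside 56.7% of all genes at 2 months and 57.6% at 5 months, and the same number were higher in FDB than in SOL, beside 52.2% at 2 months and 49.5% at 5 months. Chrng was the exception in each of these 4 comparisons, although with a pseudocount of 0.1 it was called higher in FDB than in EDL at 2 months (1.15). For Ache the FDB minus EDL call was lost after scaling by median ratios at 2 months (0.23) and at 5 months (0.08), and after quantile normalization at 5 months (0.17). For FDB minus SOL, scaling by median ratios and quantile normalization ended the calls on Ncam1 at 2 months (0.36 and 0.30) and on Chrnd at 5 months (0.23 and 0.19). Chrna1 averaged 48.7 ± 4.38 RPKM in FDB, 9.22 ± 0.378 RPKM in SOL and 5.28 ± 0.245 RPKM in EDL of 2 months (SD, n = 4 each). FDB minus EDL was 2.98 ± 0.13 (adjusted p = 1.08e-24) and SOL minus EDL 0.70 ± 0.13 (adjusted p = 8.57e-06), so each step in that order was past the threshold. Musk kept the same order, with 12.4 ± 1.63 RPKM in FDB, 6.63 ± 1.55 RPKM in SOL and 2.15 ± 0.179 RPKM in EDL, and Chrnd and Ncam1 had it too on the deposited scale. For Chrnd the SOL minus EDL step at 2 months was lost without the wt SOL library that stood apart (0.32, adjusted p = 0.0564).

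Chrne, Ache and Chrnb1 had the order FDB, EDL, SOL. Chrne averaged 44.1 ± 3.18 RPKM in FDB, 9.04 ± 0.357 RPKM in EDL and 3.62 ± 0.565 RPKM in SOL at 2 months (SD, n = 4 each), and FDB minus SOL was 3.29 ± 0.10 (adjusted p = 1.71e-31). Ache averaged 33.7 ± 1.19 RPKM in FDB, 22.6 ± 1.10 RPKM in EDL and 5.54 ± 0.560 RPKM in SOL, and SOL minus EDL was -1.86 ± 0.12 (adjusted p = 4.41e-18). Chrnb1 was lower in SOL than in EDL by -0.49 (adjusted p = 8.18e-05). Runx1 was highest in FDB and did not differ between SOL and EDL past the threshold at either age. SOL minus EDL was called higher for 4 and lower for 3 of the 9 at both ages, beside 32.5% higher and 19.8% lower of all genes at 2 months, and 36.7% higher and 17.7% lower at 5 months. FDB, EDL and SOL differ in size and fibre type, and the share of junctional nuclei in each muscle was not measured.

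Genes were ranked by likeness across the 12 group means, leaving out symbols of Gm or LOC with a digit or ending in Rik. Among the rest, the gene most like Chrng was Tmem8c, which encodes the muscle fusion protein myomaker. Its Pearson r was 0.98 over 12 groups, followed by Iqsec3 and Bcl2a1b at 0.97. Over the deviations of the 55 libraries from their group means, r between Chrng and Tmem8c was 0.92. Both genes were read in the same libraries, so whatever differs between libraries enters both values. Tmem8c averaged 13.8 ± 10.3 RPKM (SD, n = 4) in mdx EDL of 2 months and 0.153 ± 0.125 RPKM (n = 4) in wt. The genes most like the others were Tcp1, Rnpc3 and Ttll11 for Chrna1, Hs2st1, Gga2 and Ttc13 for Chrnb1, Syap1, Rpsa and Eif3d for Chrnd, and Tekt1, Rere and Cdc14b for Chrne. For Musk they were Mycbp2, Uhrf1bp1l and Syne1, for Ache Tmem87a, Nol6 and Carns1, for Runx1 Me2, Ppfia4 and Cdc45, and for Ncam1 Aftph, Rad52 and Ythdf2, with r from 0.97 to 0.99 over the 12 groups. Among the 9 themselves, Runx1 and Ncam1 had the highest r of group means at 0.94, and Chrng with Chrne had 0.08. These values describe 12 points that share muscle and genotype.

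The GENCODE annotation places Chrng at chromosome 1, 87204657 to 87212694, and Chrnd beside it at 87190607 to 87200070, both on the plus strand of build mm10. Chrne lies on chromosome 11 at 70614883 to 70619216 and Chrnb1 on the same chromosome at 69784036 to 69795943. Chrna1 is on chromosome 2 at 73563215 to 73580338 and Musk on chromosome 4 at 58285960 to 58374303. Ache is on chromosome 5 at 137287519 to 137294466, Runx1 on chromosome 16 at 92601466 to 92826149 and Ncam1 on chromosome 9 at 49502136 to 49798925. These gene ends span all annotated transcripts, so for Chrng and Chrne they reach beyond the RefSeq start from which the promoter windows were counted. Exons of Ache, Runx1 and Ncam1 overlap exons of Gm42456, Gm26626 and Gm11149 on the opposite strand, and no source used here says whether counting used strand, so reads of each pair cannot be told apart.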

How the data were processed

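RNA from whole FDB, EDL and SOL muscles was sequenced after poly(A) selection and library making with a NuGEN kit, per the labels' protocols. The authors mapped reads to mm10 with TopHat and computed RPKM in Partek, per the file headers, and CASAVA 1.8.2, TopHat2 2.1.0 and Partek 6.6 are named in the submitters' processing notes. The deposited values are RPKM per gene and library, and a second deposited table holds the authors' ratios of mdx to wt. No source used here gives the gene annotation, the strand use or the treatment of multiply mapped reads. Columns carry a group name and a library number, so libraries were grouped by these and not paired.

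From the RPKM, log2(RPKM + 1) was fitted with limma 3.58.1 in R 4.3.3, with an empirical Bayes trend, 1 mean for each of 12 groups and 55 libraries in 1 model. Tests were two-sided with Benjamini-Hochberg adjustment over 12541 genes within each contrast, at 0.05. All adjusted p-values in the text are from this fit unless another setting is named. RPKM corrects for transcript length and for total mapped reads, so a few very abundant transcripts can shift all other genes. Depth was estimated from the step between low values of 1915 single-exon genes, with a tolerance of 0.1 read. The tests were checked on simulated data with independent normal errors and a small share of genes changed in 1 group. That simulation held no blocks and no shift of all genes, so it does not cover those features of these data.

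Alternatives were scaling by median ratios, quantile normalization, a pseudocount of 0.1, no filter, a filter on group means of at least 1 RPKM, fits of the compared groups alone, leaving out each library, and keeping mdx libraries of 5 months from 1 block of library numbers. The 9 genes, the wider lists and the marker lists were chosen with earlier results of these data known, and no list was tested as a set. All 9 genes were described in every comparison. From a wider list, up to 2 members with the largest rises and 2 with the largest falls past the threshold could be named in each comparison, as could any member that did not pass. Fbxo32 in EDL of 2 months and Rapsn at 5 months fall outside that rule and were added after their values were seen. For each of the 9, the 3 genes with the highest Pearson r of group means were named. Symbols of Gm or LOC with a digit, or ending in Rik, were left out of that ranking. Promoter windows came from RefSeq.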

Additional observations from a re-analysis of the deposited data

Results flagged for a closer look

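The mdx minus wt difference varied between muscles or ages past the threshold in 22 of 81 tests of such differences (limma interaction contrasts on the log2(RPKM + 1) scale, adjusted p under 0.05). Between ages, 5 minus 2 months, this was Musk in SOL at -0.99. For FDB minus EDL at 2 months it was Chrna1 at -1.25, Chrnb1 at -1.13, Runx1 at -0.98, Chrne at -0.67, Chrnd at -0.66 and Musk at -0.60. For FDB minus EDL at 5 months it was Chrnb1 at -1.26, Chrna1 at -0.78, Ncam1 at -0.66, Ache at -0.64, Runx1 at -0.59 and Chrne at -0.53. For SOL minus EDL it was Chrna1 at -0.74 at 2 months, and at 5 months Chrna1 and Musk both at -0.78, Chrnb1 at -0.71 and Chrne at -0.33. For FDB minus SOL it was Chrnb1 at -0.85 at 2 months, and at 5 months Chrnb1 at -0.54, Ache at -0.42 and Musk at 0.55. Leaving out 1 of several libraries ended the calls on Chrnd and Musk for FDB minus EDL at 2 months, Ncam1 and Runx1 for FDB minus EDL at 5 months, Chrna1 for SOL minus EDL at 2 months, Chrne for SOL minus EDL at 5 months and Ache for FDB minus SOL at 5 months.

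In 6 of 99 groups checked, the highest or lowest library lay far from the others, and chance alone gives about 1 in 20. These were Chrna1 at 49.3 RPKM and Chrne at 23.2 RPKM in mdx FDB of 5 months, Chrne at 8.51 RPKM in wt EDL of 2 months, Ache at 18.0 RPKM in wt EDL of 5 months, and Musk at 8.96 RPKM and Runx1 at 1.62 RPKM in wt SOL of 2 months. The Musk and Runx1 values belong to 1 library, which also had the highest macrophage marker sum of its group at 99.3 RPKM and the highest Myh3 at 22.0 RPKM. The part of these in its levels was not tested.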

How the results depend on the processing

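Of 4563 values of the 9 genes under alternatives, 4197 kept their direction and their side of the threshold, 191 lost the call, 52 gained it, 120 changed sign with neither value past the threshold, and 3 called values changed sign. Those 3 were Chrnb1 in FDB of 5 months (-0.0093) and Chrne in SOL of 5 months (-0.015) under scaling by median ratios, and Chrne in SOL of 5 months under quantile normalization (-0.053). The cause of these changes was not tested.

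For mdx minus wt in EDL of 2 months, median ratios ended the calls on Ache, Chrne and Musk. Quantile normalization ended those on Chrne and Musk there. Both scalings ended the calls on Chrnb1 and Ncam1 in FDB of 5 months and on Chrne in SOL of 5 months. In EDL of 5 months both ended the call on Chrnd and brought Musk past the threshold as lower. The compared groups alone added calls on Chrnb1 and Chrnd in FDB of 2 months and Ache in SOL of 2 months. Some counts of the 9 genes in other contrasts moved as follows. For genotype by age in EDL, 0 became 2 under median ratios, 2 under quantile normalization, 1 with a pseudocount of 0.1, 1 in the compared groups alone and 2 with the third block. In FDB, 0 became 1 in the compared groups alone and 2 with the third block, and in SOL 1 became 2 with the third block. For genotype by muscle, FDB minus SOL at 2 months went to 2 under median ratios and 3 in the compared groups alone, SOL minus EDL at 2 months to 0 in the compared groups alone, and FDB minus EDL at 5 months to 3 with the first block. For age, wt SOL had 2 under median ratios, quantile normalization and a pseudocount of 0.1 and 0 without a filter, mdx SOL had 2 without a filter and 2 in the compared groups alone, wt EDL had 3 and mdx EDL 1 in the compared groups alone, and mdx FDB had 1 with the first block.

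Leaving out 1 library at a time gave 2 to 6 for age in mdx EDL, 2 to 4 in mdx SOL, 0 to 1 in wt EDL, 2 to 5 in wt FDB and 0 to 0 in wt SOL. It gave 0 to 2 for genotype by age in EDL, 1 to 2 in SOL, and 0 to 1 for SOL minus EDL at 2 months. No paired analysis was possible because the columns carry library numbers and group names but not the replicate numbers of the titles, so the planned replicate block was not run. RPKM rests on depths of 20.3 to 66.8 M reads, and Chrng in wt muscle on as few as 2.89 reads, so its wt levels and ratios are imprecise.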
